A study of Mus musculus with 9 samples.

Results

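The mRNAs of 9 interleukin genes that macrophages use early in the response to lipopolysaccharide (LPS) were followed here: Il1a, Il1b, Il1rn, Il6, Il10, Il12b, Il23a, Il15 and Il18. They were taken by gene symbol from the 25494 gene identifiers of the table of library values as a set of named interleukins, with no cutoff on a measured value, and all 9 had a row there. RNA was measured in immortalized mouse bone marrow-derived macrophages (BMDMs) without tristetraprolin (TTP, gene Zfp36), obtained by transduction with the oncogenes hcmyc and hRasG12V and kept when positive for CD11b and F4/80. Every group carried a tet-inducible vector, for GFP alone (GFP), for GFP-TTP (TTP) or for GFP-TTP-AA (TTP-AA, in which the serines phosphorylated by the kinase MK2 are changed to alanine). All cells received doxycycline at 1 µg/ml for 6 h and LPS at 1 µg/ml for 1 h, so the data hold no library without LPS or without doxycycline, and an induction by LPS could not be computed. Each group had 3 libraries, labelled as replicates, of total RNA depleted of ribosomal RNA. The groups are separately transduced lines of immortalized cells, so a difference between lines cannot be told apart from one between transgenes. Since RNA was taken in bulk, fewer cells of a type and less RNA per cell cannot be told apart either.

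TTP binds AU-rich elements, runs of ATTTA in the 3′ untranslated region (3′UTR) of cytokine mRNAs, and recruits enzymes that shorten the poly(A) tail, after which the mRNA is degraded. After LPS the kinase MK2 phosphorylates TTP, which is then held by other proteins and is less able to do so, whereas TTP-AA cannot be phosphorylated at these sites. Interleukins are secreted messengers between immune cells: interleukin-1α, interleukin-1β and interleukin-6 drive fever and the acute-phase response, interleukin-12 and interleukin-23 direct T cells, and interleukin-10 and the interleukin-1 receptor antagonist limit inflammation.

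The AU-rich stretches of these mRNAs are shown first, because they are the sequence that TTP is known to read. Each line gives 30 bases of the 3′UTR with the most ATTTA pentamers, in the sense of the mRNA, 5′ to 3′, with T for U and each ATTTA in capitals. Among equal stretches, the one with more copies of the longer motif TATTTAT was taken, and then the one nearest the stop codon. Other stretches of a 3′UTR may thus hold as many pentamers. Positions are those of GRCm38 and the transcripts those of GENCODE mouse release 21.
Il1a: ctatgtATTTAtaaatatATTTAtgataat (chr2:129300102-129300131, minus strand)
Il1b: ttacctATTTATTTAtgtATTTAttgattg (chr2:129364801-129364830, minus strand)
Il6: agttaATTTAtgattgatATTTAttatttt (chr5:30019722-30019751, plus strand)
Il10: tctctccgaaatATTTAttacctctgatac (chr1:131024385-131024414, plus strand)
Il12b: ATTTAagtaATTTAtgtATTTAttaATTTA (chr11:44413473-44413502, plus strand)
Il23a: tgatggttATTTAttctATTTAtaaggaat (chr10:128296179-128296208, minus strand)
Il15: tgcttatttttaATTTAttgcttcatttgt (chr8:82331691-82331720, minus strand)
Il18: cccgaggctgcatgATTTAtagagtaaaca (chr9:50581797-50581826, plus strand)

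Over the whole 3′UTR of the transcript with the longest coding sequence, searched on the strand of the mRNA only and with overlapping matches counted, Il6, Il10, Il12b and Il23a each held 6 ATTTA pentamers. Il1b held 4, Il1a 3, and Il15 and Il18 1 each, while the 3′UTR of Il1rn, with 1306 bases the longest of the 9, held none. Of 20705 protein-coding genes with a 3′UTR, 61.6% held at least 1 ATTTA and 32.1% held 3 or more. The longer motif TATTTAT, which contains the pentamer, occurred in 25.4% of these 3′UTRs. Il23a held 5 copies of it in 657 bases, the most of the 9 members, followed by Il10 with 4, Il1a and Il1b with 3 each, and Il6 and Il12b with 1 each. Il1rn, Il15 and Il18 held none. These counts describe letters and not binding. In the transcript with the longest 3′UTR, Il6 held 10 pentamers in 1668 bases and Il15 held none in 508.

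**Figure D1:**
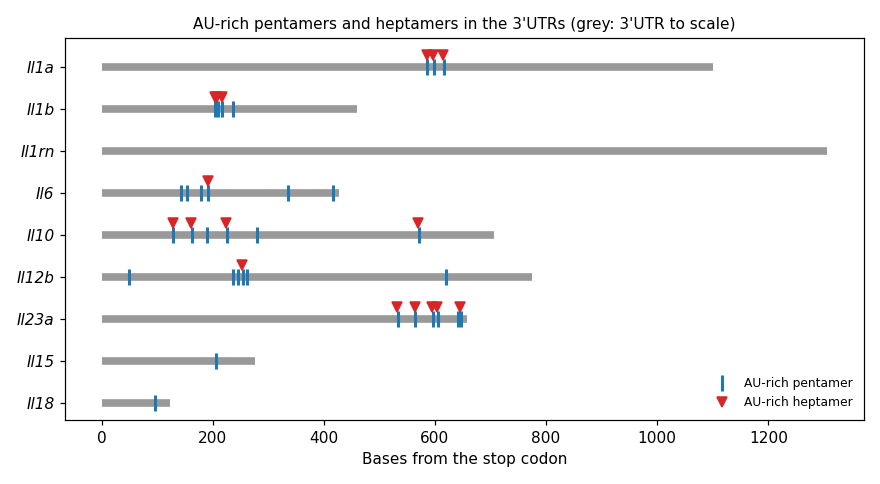
The 3′UTR of each interleukin mRNA is drawn to scale as a grey bar, with the distance from the stop codon in bases on the horizontal axis, AU-rich pentamers (ATTTA) as blue ticks and heptamers (TATTTAT) as red triangles. The 6 pentamers of Il23a lie near the end of its 657 bases, and Il1rn has no mark on 1306 bases.

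The deposited library values turned out to be fitted means of the authors' DESeq2 model, in which a gene has the same profile over replicate numbers in every group. They show the level of a gene in each library as that model sees it, and their spread within a group is not a measurement error. Whether the fitted values of the groups overlap depends only on the sizes of the replicate term and the group term, and such an overlap, or its absence, is given below as a description and bears on no test. Errors given below are therefore the standard errors (SE) of the deposited log2 fold changes from the same model, and adjusted p-values are those of its Wald test. The sum of the fitted means ran from 21482954 in TTP replicate 1 to 102613526 in TTP-AA replicate 3. Library values of a gene are given as fitted normalized counts, that is, the fitted mean divided by a size factor of the library.

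In these macrophages the interleukin-1 genes were by far the most abundant of the 9. As mean normalized count per kilobase (kb) of exon, the level was 1445 for Il1b, 1001 for Il1rn and 580 for Il1a. Il18 followed with 166 per kb and Il15 with 148, and then Il6 with 59.4 and Il23a with 53.7. Il10 and Il12b were near the limit of detection, with 2.86 and 1.82 fitted normalized counts per kb. Neighbours in this order whose fitted library ranges per kb overlapped were Il1b and Il1rn, Il18 and Il15, and Il6 and Il23a. These ranges are of fitted values, and the order within a pair was not tested. Per kb, the fitted group mean of Il1b was above that of Il1rn in GFP (1402 against 922), TTP (1487 against 986) and TTP-AA (1351 against 1092).

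**Figure D2:**
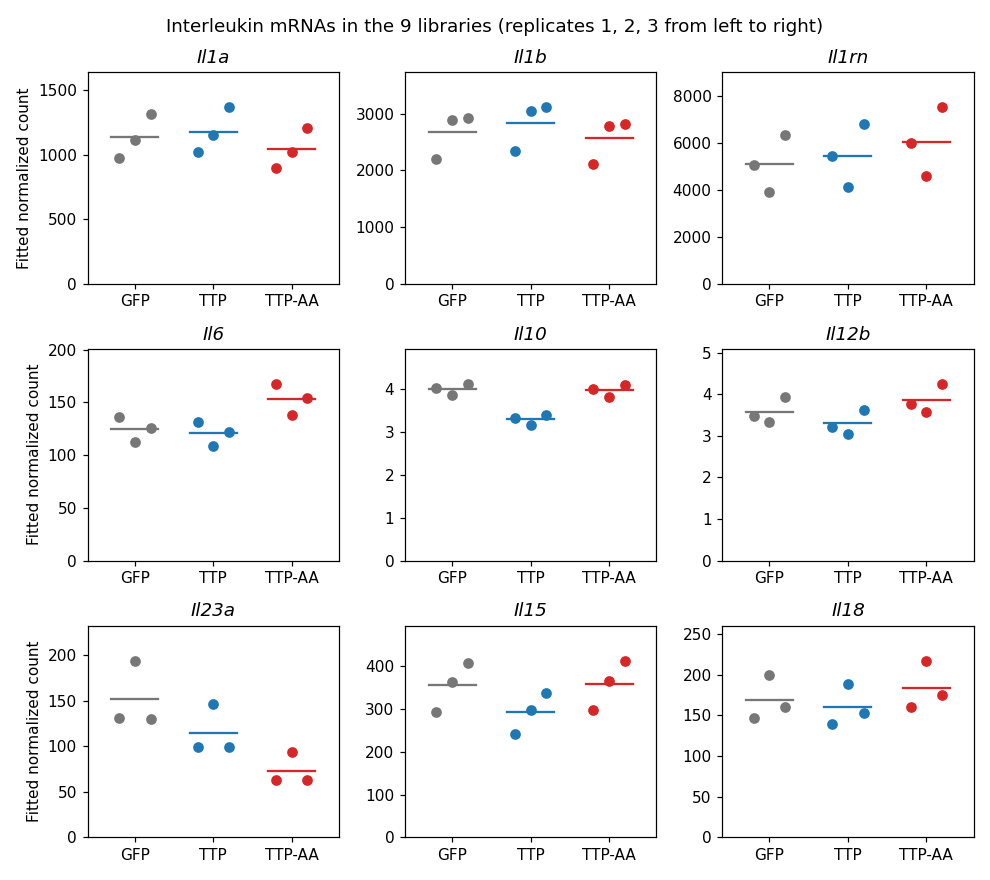
Each panel plots the fitted normalized count of 1 interleukin gene (vertical axis from 0) in the 9 libraries, with replicates 1, 2 and 3 from left to right within GFP, TTP and TTP-AA and a line at each group mean. Il23a runs from a mean of 151 in GFP to 115 in TTP and 73.1 in TTP-AA, whereas the group means of Il1a, Il1b and Il18 lie close together.

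A single interleukin mRNA, Il23a, differed between groups past the threshold, and it was lower with TTP-AA than with GFP and than with TTP. With TTP against GFP, 0 of the 7 interleukins that were listed in the comparison passed a DESeq2 adjusted p of 0.05, against 9.16% of all 11977 genes. With TTP-AA against GFP it was 1 of 7, against 17.9% of 13205 genes. With TTP-AA against TTP it was again 1 of 7, against 28.6%. An unadjusted Wald p under 0.05 was held by 0 of the 7 with TTP against GFP, and by Il6 besides Il23a with TTP-AA against TTP. The share of all genes at that unadjusted threshold was not computed. It cannot be below the adjusted shares of 9.16% with TTP against GFP and 28.6% with TTP-AA against TTP. These unadjusted counts are therefore no result about the interleukins. In a combined Wald test of both changes against GFP, which asks whether a gene differs at all among the 3 groups, 1 of 7 was called, where 33.1% of all genes were. The share of interleukins called was thus not above the background in any comparison. The median log2 fold change of the 7 was -0.04 with TTP against GFP, 0.01 with TTP-AA against GFP and 0.14 with TTP-AA against TTP, beside 0.01, 0.00 and -0.01 over all listed genes. Il10 and Il12b were listed in none of the 3 comparisons and have no error or p-value.

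Il23a (ENSMUSG00000025383, chromosome 10, 128296139 to 128298752, minus strand, protein coding) encodes the p19 subunit, which pairs with the p40 subunit from Il12b to form interleukin-23. Its fitted normalized counts were 130.8, 193.8 and 129.6 in GFP replicates 1 to 3, 99.4, 146.3 and 98.7 in TTP, and 63.2, 93.4 and 62.7 in TTP-AA. Every fitted TTP-AA value lay below every GFP and TTP value, while TTP replicate 2 lay within the range of GFP. Replicate 2 was the highest in each group, as the model forces once it is so in 1 group.

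With TTP-AA, Il23a fell by 1.05 ± 0.23 on the log2 scale against GFP (95% interval -1.51 to -0.59, DESeq2 adjusted p 0.000154), that is, to 0.483 of its level in GFP. Only 32 of 13205 genes, 0.242%, had a lower log2 fold change in that comparison. Against TTP it fell by 0.66 ± 0.23 (interval -1.12 to -0.21, DESeq2 adjusted p 0.0199), to 0.632 of the level, and 2.29% of genes had a lower value. The TTP value against GFP had the same sign, -0.39 ± 0.23, but its interval of -0.84 to 0.07 held 0 (DESeq2 adjusted p 0.335). The combined test of the 3 groups gave an adjusted p of 0.000261. The Wald scores of all genes were spread more widely than a unit normal distribution, by 1.77 with TTP-AA against GFP and 2.17 with TTP-AA against TTP. When they were divided by that spread, the adjusted p-values of Il23a became 0.264 and 0.854 and both calls were lost. That spread was taken with the called genes included, and their part in it was not tested. In the other 5 alternatives both calls remained, with adjusted p-values of 0.000112 to 0.000151 and 0.00371 to 0.0224.

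The SE of Il23a was larger than that of 97.5% of the 910 genes with a mean count within 1.5-fold of its own. Its fitted mean over the 9 libraries differed from the mean of the measured normalized counts by -6.24%, and only 4.15% of listed genes had a lower value. Measured values of single libraries were not analysed here. Zfp36, the gene whose coding sequence both TTP vectors carry, did not separate the TTP libraries from GFP, with 0.04 ± 0.17 (DESeq2 adjusted p 0.930), so its level gave no check of the libraries labelled TTP. It was higher with TTP-AA, by 0.65 ± 0.17 against TTP (DESeq2 adjusted p 0.000902) and by 0.69 ± 0.17 against GFP (DESeq2 adjusted p 0.000682). The part of these levels in the result for Il23a was not tested. Zbtb46, a marker of dendritic cells, which also make interleukin-23, moved the same way as Il23a in TTP-AA, by -1.10 against GFP (DESeq2 adjusted p 5.2e-05) and -1.06 against TTP (DESeq2 adjusted p 5.8e-05). Of the 4 dendritic cell markers, 3 had a row, Flt3 was not called in any comparison and Clec9a stood at 0.37 fitted normalized counts. Their summed level, mostly from Flt3, was 271 to 325 in GFP, 262 to 311 in TTP and 214 to 261 in TTP-AA. Its part in the result was not tested.

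Il6 (ENSMUSG00000025746, chromosome 5, 30013114 to 30019981, plus strand), which encodes interleukin-6 and carries as many pentamers as Il23a, was called in no comparison. Its fitted normalized counts were 136.3, 112.9 and 125.6 in GFP, 131.8, 108.4 and 121.6 in TTP, and 167.4, 138.1 and 154.2 in TTP-AA. Every fitted TTP-AA value lay above every GFP and TTP value, because the group term spanned more than the replicate term, and measured libraries may lie otherwise. The log2 fold change was 0.34 ± 0.17 with TTP-AA against TTP, with an interval of 0.0087 to 0.66 and an unadjusted p of 0.0442 that did not hold over all genes (DESeq2 adjusted p 0.120). Against GFP it was 0.29 ± 0.17 for TTP-AA (interval -0.03 to 0.62, DESeq2 adjusted p 0.233) and -0.04 ± 0.17 for TTP (interval -0.37 to 0.29, DESeq2 adjusted p 0.926). At this SE a difference needed to reach 0.44 on the log2 scale to be called with TTP-AA against GFP, so smaller changes of Il6 were not detectable. The fitted mean of Il6 differed from its measured mean by -7.76%. Per kb of exon, the fitted level of Il23a was above that of Il6 in GFP, 67.4 against 51.5, and below it in TTP-AA, 32.5 against 63.1.

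Il12b (ENSMUSG00000004296, chromosome 11, 44400063 to 44414033, plus strand) encodes p40, shared by interleukin-12 and interleukin-23. It was barely present 1 h after LPS. Its fitted normalized counts were 3.5, 3.3 and 3.9 in GFP, 3.2, 3.0 and 3.6 in TTP, and 3.8, 3.6 and 4.2 in TTP-AA, and the groups overlapped. Its fitted log2 difference was -0.11 with TTP against GFP, 0.11 with TTP-AA against GFP and 0.22 with TTP-AA against TTP, with no error available. Il12a, which encodes the other subunit of interleukin-12, had no row.

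Il10 (ENSMUSG00000016529, chromosome 1, 131019845 to 131024974, plus strand), which encodes the anti-inflammatory interleukin-10, was as low. It stood at 4.0, 3.8 and 4.1 fitted normalized counts in GFP, 3.3, 3.2 and 3.4 in TTP, and 4.0, 3.8 and 4.1 in TTP-AA. The fitted TTP values were the lowest and did not overlap with the others, but fitted reads of Il10 numbered only 2.04 to 11.6 per library and those of Il12b 1.97 to 12.0. Fitted log2 differences were -0.27 with TTP against GFP, -0.01 with TTP-AA against GFP and 0.26 with TTP-AA against TTP. The lowest mean measured count that was listed was 23.0 with TTP against GFP and 8.98 for the other comparisons. Neither gene has a measured mean here, and their fitted means were 3.75 for Il10 and 3.58 for Il12b. Whether the deposited differences were shrunk towards 0 was not given in the sources used here, but the SD of the fitted log2 fold change with TTP against GFP was 0.14 over 2085 genes with means of 3 to 10 and 0.34 over 4013 genes with means of 100 to 1000.

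**Figure D3:**
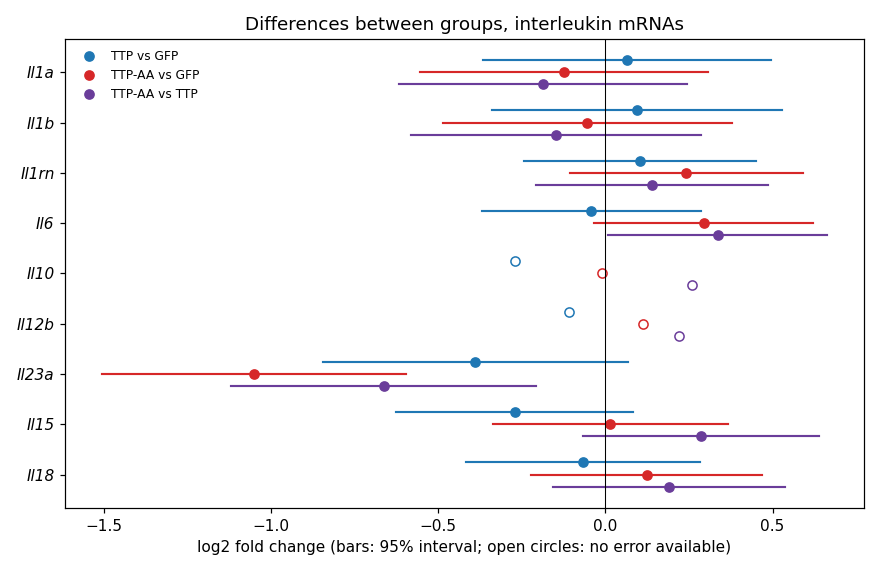
For each interleukin gene the log2 fold change is plotted with TTP against GFP (blue), TTP-AA against GFP (red) and TTP-AA against TTP (purple), with 95% intervals from the deposited SE as bars and open circles for the unlisted Il10 and Il12b, which have no error. Both intervals of Il23a that involve TTP-AA lie below 0, from -1.51 to -0.59 and from -1.12 to -0.21, and the interval of Il6 with TTP-AA against TTP just clears 0.

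The interleukin-1 agonists were called in no comparison. Il1b (ENSMUSG00000027398, chromosome 2, 129364570 to 129371139, minus strand) encodes interleukin-1β, made as an inactive precursor. It stood at 2198, 2895 and 2928 fitted normalized counts in GFP, 2336, 3055 and 3116 in TTP, and 2122, 2784 and 2825 in TTP-AA, and the 3 groups overlapped. The log2 fold change was 0.09 ± 0.22 with TTP against GFP (interval -0.34 to 0.53, DESeq2 adjusted p 0.867) and -0.05 ± 0.22 with TTP-AA against GFP (interval -0.49 to 0.38, DESeq2 adjusted p 0.907). It was -0.15 ± 0.22 with TTP-AA against TTP (interval -0.58 to 0.29, DESeq2 adjusted p 0.673). A change of Il1b smaller than 0.58 on the log2 scale would not have been called with TTP-AA against GFP, which makes this abundant mRNA one of the less precisely measured.

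Il1a (ENSMUSG00000027399, chromosome 2, 129299610 to 129309972, minus strand), the neighbouring gene of interleukin-1α, gave 977.5, 1112 and 1313 fitted normalized counts in GFP, 1017, 1149 and 1369 in TTP, and 899.1, 1019 and 1207 in TTP-AA. The groups overlapped here as well. Its log2 fold change was 0.06 ± 0.22 with TTP against GFP (interval -0.37 to 0.49, DESeq2 adjusted p 0.913), -0.12 ± 0.22 with TTP-AA against GFP (interval -0.55 to 0.31, DESeq2 adjusted p 0.774) and -0.19 ± 0.22 with TTP-AA against TTP (interval -0.62 to 0.24, DESeq2 adjusted p 0.577). The SE of both genes exceeded that of 98.8% (Il1a) and 98.9% (Il1b) of genes with a like mean. Exons of Il1a overlap Gm14023 over 222 of 1974 bases and those of Il1b overlap Il1bos over 25 of 1907 bases, each on the other strand, and such reads may be counted for either gene where strand was not used. The other 7 members had no exon in common with another gene.

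Il18 (ENSMUSG00000039217, chromosome 9, 50554827 to 50581840, plus strand) encodes interleukin-18, an interleukin-1 relative that raises interferon-γ production. It stood at 146.7, 199.5 and 160.5 fitted normalized counts in GFP, 139.4, 188.2 and 152.7 in TTP, and 160.2, 216.9 and 175.1 in TTP-AA. All 3 groups overlapped. Its log2 fold change was 0.19 ± 0.18 with TTP-AA against TTP (interval -0.16 to 0.54, DESeq2 adjusted p 0.460), 0.12 ± 0.18 with TTP-AA against GFP (interval -0.22 to 0.47, DESeq2 adjusted p 0.707) and -0.07 ± 0.18 with TTP against GFP (interval -0.42 to 0.28, DESeq2 adjusted p 0.885).

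Il1rn (ENSMUSG00000026981, chromosome 2, 24336853 to 24351494, plus strand) encodes the antagonist that blocks the interleukin-1 receptor, and it had the highest mean normalized count of the 9, 5543 before division by length. Its fitted normalized counts were 5069, 3896 and 6347 in GFP, 5424, 4139 and 6801 in TTP, and 6008, 4599 and 7520 in TTP-AA. The group mean was lowest in GFP and highest in TTP-AA, and the ranges of the fitted values overlapped, since the replicate term spanned more than the group term. The log2 fold change was 0.24 ± 0.18 with TTP-AA against GFP (interval -0.10 to 0.59, DESeq2 adjusted p 0.383), 0.10 ± 0.18 with TTP against GFP (interval -0.24 to 0.45, DESeq2 adjusted p 0.805) and 0.14 ± 0.18 with TTP-AA against TTP (interval -0.21 to 0.49, DESeq2 adjusted p 0.614).

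Il15 (ENSMUSG00000031712, chromosome 8, 82331632 to 82403222, minus strand) encodes a growth factor of natural killer and memory T cells. Its fitted normalized counts were 293.2, 362.8 and 407.1 in GFP, 241.8, 297.1 and 336.2 in TTP, and 296.7, 365.7 and 411.7 in TTP-AA. The TTP values were the lowest at each replicate number, an order that the fitted model repeats by construction, and their range overlapped with both other groups. The log2 fold change was -0.27 ± 0.18 with TTP against GFP (interval -0.63 to 0.08, DESeq2 adjusted p 0.405), 0.01 ± 0.18 with TTP-AA against GFP (interval -0.34 to 0.37, DESeq2 adjusted p 0.973) and 0.29 ± 0.18 with TTP-AA against TTP (interval -0.07 to 0.64, DESeq2 adjusted p 0.241).

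The replicate numbers spanned a wider range than the groups for most of the interleukins, as they did for most listed genes. The methods name library date as a term of the model, but no label ties a replicate number to a date. The replicate term of Il1rn spanned 0.70 on the log2 scale against a span of 0.25 between group terms, and that of Il1a 0.43 against 0.18. The replicate span was the larger for 6 of the 9 members, and for 60.2% of all listed genes. Il23a was an exception with 0.58 against 1.05, as were Il6 with 0.27 against 0.35 and Il10 with 0.10 against 0.28. Il1a, Il1b, Il1rn and Il15 were highest in replicate 3, Il23a and Il18 in replicate 2, and Il6 in replicate 1. The interleukins therefore did not share 1 profile over the replicate numbers. Both terms are in the fit that gave the SE.

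Among 11142 genes with a mean count of at least 50 that were listed in all 3 comparisons, the 2 genes whose pair of log2 fold changes against GFP lay closest to that of Il23a were Osm and Il17ra. Osm encodes oncostatin M, a cytokine of the interleukin-6 family, and lay at a distance of 0.0158 with -0.37 ± 0.16 for TTP (DESeq2 adjusted p 0.148) and -1.05 ± 0.16 for TTP-AA (DESeq2 adjusted p 1.6e-08). Il17ra encodes a chain of the interleukin-17 receptor, and lay at 0.0866 with -0.37 ± 0.17 and -0.97 ± 0.17 (DESeq2 adjusted p 0.173 and 9.4e-07). Both genes were chosen for this likeness, and both changes of a gene share the GFP libraries.

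**Figure D4:**
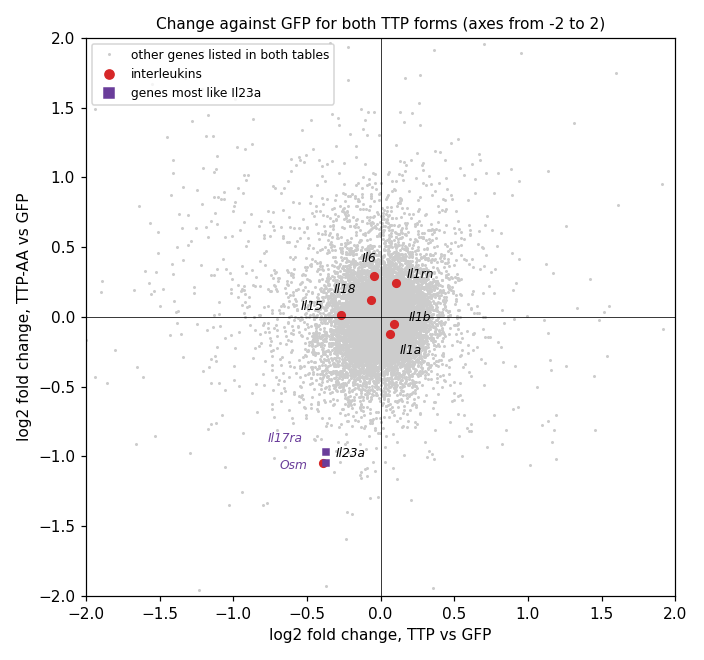
Each point is a gene listed in both comparisons, with its log2 fold change with TTP against GFP on the horizontal and with TTP-AA against GFP on the vertical axis, both cut at -2 and 2; interleukins are red circles and the 2 genes most like Il23a are purple squares. Il23a sits with them at about -0.39 and -1.05, whereas the other 6 listed interleukins lie within the central cloud, and both axes share the GFP libraries.

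The genes that receive, process or pass on these interleukins were examined in 5 lists with 55 genes in all. Of the 14 receptor chains, 1 (Il2rb) had no row, and Il23r and Il18r1, which bind interleukin-23 and interleukin-18, were too low to be listed. With TTP against GFP 0 of 10 receptors were higher and 2 lower, where 4.08% and 5.08% of all genes were. With TTP-AA against GFP 2 of 11 were higher and 1 lower, against 9.11% and 8.77%. With TTP-AA against TTP 5 of 11 were higher and 1 lower, against 14.0% and 14.6%, and the median of the list was 0.51 on the log2 scale beside -0.01 for all genes.

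Of the interleukin-10 receptor chains, against GFP, Il10ra was lower in TTP and Il10rb higher in TTP-AA, while their ligand was hardly present. Il10ra, the ligand-binding chain, fell by 0.69 ± 0.23 with TTP against GFP (DESeq2 adjusted p 0.0344) and was above its TTP level in TTP-AA by 0.95 ± 0.23 (DESeq2 adjusted p 0.000400). With TTP-AA against GFP Il10ra was at 0.26 ± 0.23 (DESeq2 adjusted p 0.508). Il10rb, the chain shared with related receptors, rose with TTP-AA by 0.45 ± 0.11 against GFP (DESeq2 adjusted p 0.00130), and 569 of its 3808 exonic bases are shared with Gm21970 on the same strand. With TTP against GFP Il10rb was at -0.21 ± 0.11 (DESeq2 adjusted p 0.280). Il12rb2, a chain of the interleukin-12 receptor, fell by 1.26 ± 0.23 with TTP (DESeq2 adjusted p 4.3e-06), but 1519 of the 3794 bases of its exons overlap Serbp1 on the other strand. With TTP-AA against GFP Il12rb2 was at 0.17 ± 0.23 (DESeq2 adjusted p 0.696). Il2rg, the common γ chain used by interleukin-15, rose with TTP-AA by 0.44 ± 0.14 (DESeq2 adjusted p 0.0124), and shares 728 of 2387 exonic bases with Gm20489 on the same strand. Il15ra, which presents interleukin-15, passed the test only between the TTP forms, by 0.55 ± 0.19 (DESeq2 adjusted p 0.0164), with 0.11 ± 0.18 with TTP-AA against GFP and -0.43 ± 0.19 with TTP against GFP. Il6st (gp130), the signalling chain of the interleukin-6 receptor, moved the other way and fell by 0.44 ± 0.16 with TTP-AA against GFP (DESeq2 adjusted p 0.0349) and fell by 0.42 ± 0.16 against TTP (DESeq2 adjusted p 0.0324).

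Of 6 inhibitors and decoys, Il1r2, Il18bp and Sigirr were too low to be listed, and Il1rl1 and Socs3 were called in no comparison. Socs1, which shuts down cytokine receptor signalling, rose with TTP-AA by 1.31 ± 0.21 against GFP (DESeq2 adjusted p 1.8e-08), and its value for TTP was -0.21 ± 0.21 (DESeq2 adjusted p 0.623).

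The precursors of interleukin-1β and interleukin-18 are cut by caspase-1 in inflammasomes, and all 7 genes of that machinery were listed. With TTP against GFP 0 were higher and 2 lower, with TTP-AA against GFP 3 were higher and 0 lower, and with TTP-AA against TTP 5 were higher and 0 lower, with a median of 0.52 in the last. Over all genes 4.08% were higher and 5.08% lower in the first comparison, 9.11% and 8.77% in the second, and 14.0% and 14.6% in the last. Pycard, the adaptor ASC, fell by 0.79 ± 0.09 with TTP (DESeq2 adjusted p 2.8e-17) and rose with TTP-AA by 0.37 ± 0.09 (DESeq2 adjusted p 0.000348), although Gm45205 overlaps it on the other strand. Casp1 rose with TTP-AA by 0.45 ± 0.12 (DESeq2 adjusted p 0.00246) and Casp4, the caspase of the non-canonical pathway, by 0.72 ± 0.19 (DESeq2 adjusted p 0.00199). Nlrc4, a further gene of that machinery, fell by 0.54 ± 0.12 with TTP (DESeq2 adjusted p 0.000172). Gsdmd, the pore through which mature interleukin-1β leaves the cell, differed between TTP-AA and TTP by 0.34 ± 0.11 (DESeq2 adjusted p 0.00776). The sensors Nlrp3 and Aim2 were called in no comparison.

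Of 15 dimer partners and other interleukin ligands, 3 had no row (Il12a, Il13 and Il17a) and 6 were listed for TTP-AA, of which 3 were higher against GFP and 3 against TTP and 0 were lower in either, where 9.11% and 14.0% of all genes were higher and 8.77% and 14.6% lower. Ebi3, which forms interleukin-27 with the Il27 product, fell by 1.13 ± 0.19 with TTP (DESeq2 adjusted p 5e-07) and rose with TTP-AA by 0.86 ± 0.19 (DESeq2 adjusted p 0.000142), with an antisense gene across its exons. Il1f6 and Il1f9, of the interleukin-36 group, rose with TTP-AA by 1.04 ± 0.20 and 0.89 ± 0.19 (DESeq2 adjusted p 7e-06 and 8.5e-05), from low fitted means of 7.4 and 15.1. With TTP against GFP only 2 of the list were tested, and Ebi3 was called.

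Of 13 signal transducers 12 were listed, with 1 higher and 1 lower with TTP-AA against GFP and 3 higher and 1 lower with TTP-AA against TTP, where the shares of all genes were 9.11% and 8.77%, and 14.0% and 14.6%. Jak2, a kinase of the interleukin-12 and interleukin-23 receptors, rose with TTP-AA by 0.65 ± 0.14 (DESeq2 adjusted p 0.000156). Stat5b fell by 0.46 ± 0.09 with TTP-AA (DESeq2 adjusted p 1.8e-05), whereas Stat5a was above its TTP level in TTP-AA by 0.55 ± 0.15 (DESeq2 adjusted p 0.00174), with an exonic overlap with Stat3. Jak3, the kinase at the common γ chain, was above its TTP level in TTP-AA by 0.39 ± 0.15 (DESeq2 adjusted p 0.0401), and shares 404 of 5352 exonic bases with Insl3 on the same strand. Myd88, Irak1, Irak2, Irak4 and Traf6, which carry the signal of the interleukin-1 receptor, were called in no comparison. With every Wald score divided by the spread of its comparison, the calls that remained among the named genes of the 5 lists were those of Il12rb2, Pycard and Ebi3 with TTP against GFP, of Socs1 with TTP-AA against GFP, and of Socs1, Pycard and Ebi3 with TTP-AA against TTP.

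**Figure D5:**
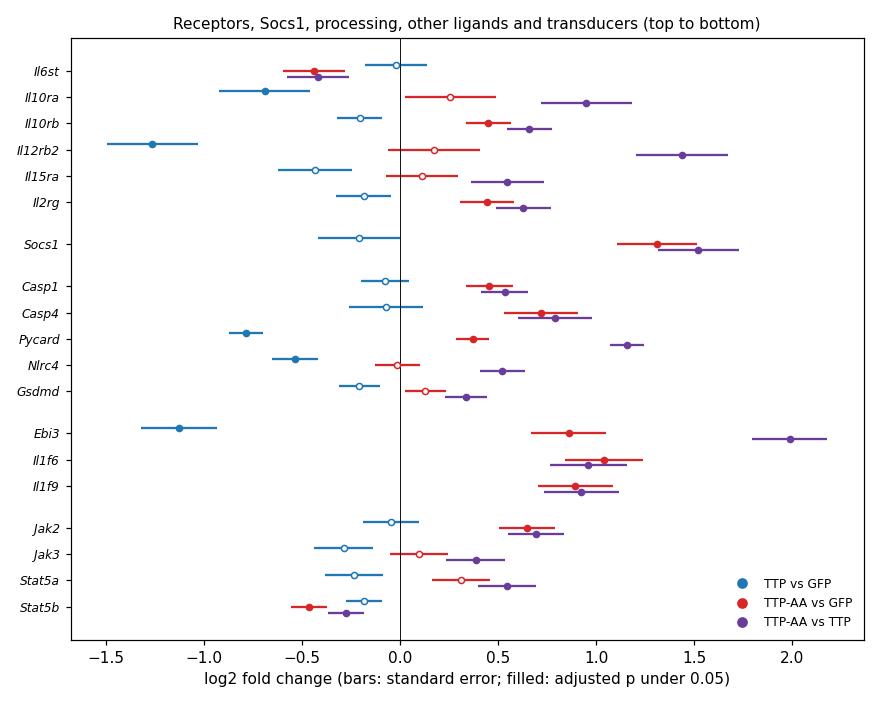
For the 19 genes of the 5 lists named in the text, the log2 fold change is plotted with its SE with TTP against GFP (blue), TTP-AA against GFP (red) and TTP-AA against TTP (purple), filled where the adjusted p was under 0.05; Il1f6 and Il1f9 were not listed with TTP against GFP. Purple points lie mostly to the right, up to 1.99 for Ebi3, and those of Il6st (-0.42) and Stat5b (-0.28) lie to the left.

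Markers of the labelled cell type and of others were examined last. Of the 9 macrophage markers 8 had a row, and 7 were listed with TTP against GFP. Of these 7, 2 were lower and 0 higher in TTP, where 5.08% and 4.08% of all genes were. In TTP-AA 1 of 8 was higher and 0 lower than in GFP, where 9.11% and 8.77% of all genes were. Against TTP it was 3 of 8 higher and 0 lower, beside 14.0% and 14.6%. Fcgr1, a receptor for antibodies, was at -1.20 with TTP against GFP (DESeq2 adjusted p 3e-09) and 0.82 with TTP-AA against TTP (DESeq2 adjusted p 8.6e-05). Lyz2, lysozyme, was at 0.46 with TTP-AA against TTP (DESeq2 adjusted p 0.000133). Cd68, Itgam, Csf1r, Cd14 and Mertk were called in no comparison that listed them. Emr1, the gene of F4/80, differed in all 3, by -0.75 with TTP against GFP (DESeq2 adjusted p 1.3e-05), 0.68 with TTP-AA against GFP (DESeq2 adjusted p 7e-05) and 1.43 with TTP-AA against TTP (DESeq2 adjusted p 6.5e-21). The summed macrophage markers, mostly from Lyz2, were 577244 to 797597 in GFP, 481252 to 657062 in TTP and 661290 to 908016 in TTP-AA. Of 6 neutrophil markers 3 had a row, with sums of 129 to 191 in GFP, 130 to 193 in TTP and 210 to 319 in TTP-AA. These came mostly from S100a8, which was called for TTP-AA. Of 6 T and NK cell markers 4 had a row, with sums of 63.5 to 70.4 in GFP, 94.6 to 106 in TTP and 88.0 to 97.9 in TTP-AA, mostly from Lck. Lck was higher with TTP against GFP by 0.66 ± 0.21 (DESeq2 adjusted p 0.0200). With TTP-AA against GFP Lck was at 0.52 ± 0.20 (DESeq2 adjusted p 0.0563). Those of B cells reached at most 2.65 and those of fibroblasts 0.923. The part of these sums in the results for the interleukins was not tested.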

How the data were processed

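RNA sequencing libraries (3 each for GFP, TTP and TTP-AA) were analysed from tables the authors deposited. Per the labels, the submitters' processing notes name Trim Galore, TopHat2 2.0.12, HTSeq, DESeq2 1.6.3 and GRCm38, and the methods name Ensembl genes and a model with library date and condition. Use of strand was not given in the sources used here. The deposited library table, named as normalized counts, holds a signal for 25494 gene identifiers. It contained 0 values of 0, and its centred log2 values had 4 nonzero singular values, against 8 for 9 unconstrained libraries. Its log2 ratios equalled the deposited log2 fold changes plus a constant, to within 1.4e-14, so it holds fitted means and no scatter between replicates.

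The authors' deposited comparison tables hold the mean signal over 9 libraries, a log2 fold change, its SE, a Wald score (log2 fold change over SE), a p-value and an adjusted p-value. Because fitted means leave no residual, tests on library values were not possible. These columns, which are the authors' own results, were used as deposited. Repeated identifiers were counted once. P-values measure the spread between libraries, which may be technical.

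Computed here were 95% intervals, library size factors (median of ratios over genes with a mean fitted value of at least 10), levels per kb of exon, a combined Wald test of both changes against GFP with Benjamini-Hochberg adjustment over 11977 genes (tested on simulated data), and motif counts in 3′UTRs of GENCODE release 21. That annotation is on the authors' assembly but is later, and covered 99.5% of the genes of the comparison between both TTP forms. The tools were scipy 1.17.1, pandas 2.3.3 and numpy 2.4.6 under Python 3.11.15. The members, the 5 pathway lists, the markers and the tests were chosen with earlier results of these data known. Named were all 9 members, list genes with an adjusted p under 0.05 (at most 6 per list, by smallest adjusted p), and for each called member the 3 genes with the smallest distance over both log2 fold changes against GFP. The results of 2 genes under this rule are not reported here, and the 1 that belonged to a list was left out of its counts. Genes outside that rule are named where a count of 5 or fewer is spelled out, or where a value bears on a member.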

Additional observations from a re-analysis of the deposited data

Results flagged for a closer look

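Of the interleukins and pathway list genes named above, 20 differed between TTP-AA and TTP in the direct comparison of both (DESeq2 adjusted p under 0.05). Among the interleukins this was Il23a, with a log2 difference of -0.66. Among receptors it was Il12rb2 with 1.44, Il10ra with 0.95, Il10rb with 0.66, Il2rg with 0.63, Il15ra with 0.55 and, in the other direction, Il6st with -0.42. Socs1 differed by 1.52. In the processing machinery the differences were 1.15 for Pycard, 0.79 for Casp4, 0.53 for Casp1, 0.52 for Nlrc4 and 0.34 for Gsdmd. Of the other ligands, Ebi3 differed by 1.99, Il1f6 by 0.96 and Il1f9 by 0.92. Of the transducers, Jak2 differed by 0.69, Stat5a by 0.55, Jak3 by 0.39 and Stat5b by -0.28. Outside the count, Emr1 (1.43), Fcgr1 (0.82), S100a8 (0.74), Zfp36 (0.65), Lyz2 (0.46), Zbtb46 (-1.06), Osm (-0.68) and Il17ra (-0.59) also passed this threshold. List genes were named chiefly because they were called, so the count is no test against the background. Of all 13205 genes, 28.6% were called with TTP-AA against TTP.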

How the results depend on the processing

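Of 6 alternatives, scaling all Wald scores to a central spread of 1 left 0 of 7 interleukins called for TTP-AA against GFP, 0 for TTP-AA against TTP and 0 among the 3 groups, where 1 had been called in each. The 76 log2 fold changes examined include many that were never called, and among the called ones this scaling ended 31 calls. Those of Il10ra, Il10rb, Il2rg, Il15ra, Il6st, Casp1, Casp4 and Gsdmd were lost. Pycard lost its call for TTP-AA against GFP (scaled Wald test, adjusted p 0.307). The only calls left were those of Il12rb2, Pycard, Ebi3 and Socs1 given with the lists above. Under median centring, centring by chromosome, removal of a trend on GC content and length, a mean of at least 50 or protein-coding genes alone, Il23a kept its calls, with adjusted p-values of 0.000112 to 0.000151 for TTP-AA against GFP and 0.00371 to 0.0224 for TTP-AA against TTP. Values close to 0 changed sign: Il15 for TTP-AA against GFP became -0.0091 when centred by chromosome, and Nlrc4 for TTP-AA against GFP became 0.013 when centred by chromosome and 0.0029 with the GC and length trend removed. Centring by chromosome also ended the call of Stat5b for TTP-AA against TTP (adjusted p 0.274) and gave one for Stat5a for TTP-AA against GFP (0.0365), and the GC and length trend ended that of Il6st for TTP-AA against GFP (0.0524). No paired analysis was possible because the library table holds fitted means, and for the same reason leaving out each library, other pseudocounts and other normalizations were not run. With no measured library values, the weight of any 1 library, such as the deep TTP-AA replicate 3, was not tested. Differences of Il10 and Il12b were not detectable at their counts.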
